A study of Mus musculus with 12 samples.

Results

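The genes described here mark T cells and natural killer (NK) cells in a tumour or act as costimulatory and checkpoint molecules between those cells and the cells that present antigen. Members were the rows of the deposited gene table that carry 1 of 35 listed symbols, and all 35 were found among 21899 genes. They comprise 4 genes of the T cell receptor complex, 3 coreceptors, 3 T cell surface glycoproteins, 2 proximal kinases, 3 costimulatory receptors, 5 checkpoint receptors, 3 interleukin receptor chains, 4 transcription factor and effector cytokine genes, 5 NK cell genes, the activation marker Cd69 and the costimulatory ligands Cd80 and Cd86. Total RNA was sequenced from tumours of BALB/c mice, 4 to 6 weeks old at the start, that had been inoculated with 4T1-LUC cells, a mouse mammary carcinoma line. The combination group received curcumin, the yellow polyphenol of turmeric, at 100 mg/kg in 200 µL of corn oil by gavage and swam for 30 minutes, starting 30 minutes after gavage. The curcumin group received the same gavage and did not swim, the swimming group received corn oil and swam for 30 minutes, and the control group received corn oil only. Every group thus carried tumours and was gavaged with oil, so no library shows the genes without a tumour. Each group had 3 libraries, and the labels do not say whether these come from separate mice, so the p-values below measure the spread between these libraries, which may be technical.

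T cells recognise antigen through the receptor whose signalling chains are CD3 and CD247, and the kinases LCK and ZAP70 carry the first step of the signal. A second signal comes from CD28 when it meets CD80 or CD86 on an antigen-presenting cell, while CTLA4 competes for the same ligands and PD-1, LAG3, TIGIT and TIM-3 (gene Havcr2) restrain activated T cells. NK cells kill without a rearranged receptor, through activating receptors such as NKG2D (Klrk1) and NKp46 (Ncr1). In tumours most of these genes are known from infiltrating leukocytes, and which cells carried their RNA in these libraries was not tested.

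The promoters of 2 chains of the T cell receptor complex and of 2 members whose levels went apart from it are shown as windows of 300 bases from 250 before to 50 after the start that RefSeq gives on GRCm38.p6. RefSeq windows were matched for 24 of the 35 members (29 windows, since some genes have several starts and the 2 windows of Ncr1 overlap each other). Capitals mark AGGAAG, a form of the motif of ETS factors, and TGTGGT, a form of that of RUNX factors, on either strand. Only these exact letters were marked, so a window without them may hold other forms.
Cd3d (chr9:44981536-44981835, plus strand): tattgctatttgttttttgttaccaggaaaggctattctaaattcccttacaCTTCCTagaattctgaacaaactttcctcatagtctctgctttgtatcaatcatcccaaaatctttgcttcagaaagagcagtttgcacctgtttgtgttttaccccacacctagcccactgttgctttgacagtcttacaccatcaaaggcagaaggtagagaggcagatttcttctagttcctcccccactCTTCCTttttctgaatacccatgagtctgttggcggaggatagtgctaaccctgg
Cd3e (chr9:45009562-45009861, minus strand): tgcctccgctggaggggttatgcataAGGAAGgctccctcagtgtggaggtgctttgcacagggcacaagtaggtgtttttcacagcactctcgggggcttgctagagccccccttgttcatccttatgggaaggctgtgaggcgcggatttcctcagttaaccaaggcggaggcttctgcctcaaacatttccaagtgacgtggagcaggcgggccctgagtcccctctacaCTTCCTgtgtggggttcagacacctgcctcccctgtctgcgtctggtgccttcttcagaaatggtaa
Tigit (chr16:43664135-43664434, minus strand): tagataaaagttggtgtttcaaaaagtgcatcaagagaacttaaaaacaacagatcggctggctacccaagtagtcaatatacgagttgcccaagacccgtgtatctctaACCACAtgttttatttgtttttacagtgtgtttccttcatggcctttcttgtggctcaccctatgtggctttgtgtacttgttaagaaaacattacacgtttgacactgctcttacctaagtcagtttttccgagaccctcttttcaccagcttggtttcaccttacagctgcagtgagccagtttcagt
Cd80 (chr16:38458683-38458982, plus strand): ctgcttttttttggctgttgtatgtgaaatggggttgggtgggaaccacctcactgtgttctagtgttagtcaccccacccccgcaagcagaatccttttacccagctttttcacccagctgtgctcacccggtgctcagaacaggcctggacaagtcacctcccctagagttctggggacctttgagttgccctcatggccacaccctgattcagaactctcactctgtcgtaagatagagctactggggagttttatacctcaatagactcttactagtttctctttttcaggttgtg
Cd3d and Cd3e, chains of the T cell receptor complex, each held 2 copies of AGGAAG and none of TGTGGT in these windows. The Tigit window held 1 copy of TGTGGT and none of AGGAAG, and the Cd80 window held neither. The window of Cd8a, which kept closest to the complex across libraries, and that of Cd3g, itself part of the complex, also held neither. The windows of Havcr2 (2 copies of AGGAAG and 1 of TGTGGT) and Il7r (1 of each), which did not keep to the complex, held both. Whether these motifs bear on the levels of these genes was not tested. Over all member windows, AGGAAG was in 17 of 29 (58.6%), against 35.4% of 32851 RefSeq promoters of the same length. TGTGGT was in 10 of 29 member windows (34.5%), against 16.8% of all promoters, and the E-box CAGNTG, on either strand, in 24 of 29 (82.8%), against 51.4%. No window held motifs of different kinds that overlapped, and a match describes letters, not a bound site.

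The libraries held 15069348 to 17278826 counts each. At that depth 3 counts, taken as the least that can be read, correspond to 0.174 to 0.199 CPM, the count scaled to the library total and used for levels below. The labels call the material breast cancer cell. Epithelial genes were abundant in every library, with Krt8 between 586.7 and 799.6 CPM, and the leukocyte gene Ptprc (CD45) was present throughout, at 79.5 to 228 CPM. Members passed the low-count filter in 32 of 35 cases. Ifng, Ncr1 and Klrb1c did not and are too low to judge.

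Per gene length, in FPKM, the members spanned a wide range of levels. Tigit, an inhibitory receptor of T and NK cells, was the highest, with a mean of 54.6 FPKM over the 12 libraries and a range of 24.1 to 81.8 FPKM. Havcr2, which encodes TIM-3 and is also expressed by myeloid cells, came next at 14.2 FPKM, and its highest library (22.2 FPKM) lay below the lowest Tigit library. That gap depends on the gene lengths used, 919 bases for Tigit and 2721 for Havcr2. In CPM, without division by length, their ranges overlapped, at 22.1 to 75.1 CPM for Tigit and 18.6 to 60.4 CPM for Havcr2. Il2rb, the shared interleukin-2 and interleukin-15 receptor chain, averaged 10.4 FPKM and Cd8a, a chain of the CD8 coreceptor, 9.71 FPKM, and the ranges of Havcr2, Il2rb and Cd8a overlapped. By contrast the T cell receptor chain Cd3e averaged 1.40 FPKM, Cd3g 4.58 FPKM, Cd3d 1.04 FPKM and Cd247 0.432 FPKM. Cd4, the coreceptor of helper T cells, averaged 0.638 FPKM and Foxp3, the transcription factor of regulatory T cells, 0.259 FPKM. Neighbours in this order below Tigit overlapped in their ranges, so only the wide steps of the ranking are readable. The plot of FPKM by gene shows this order.

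**Figure D1:**
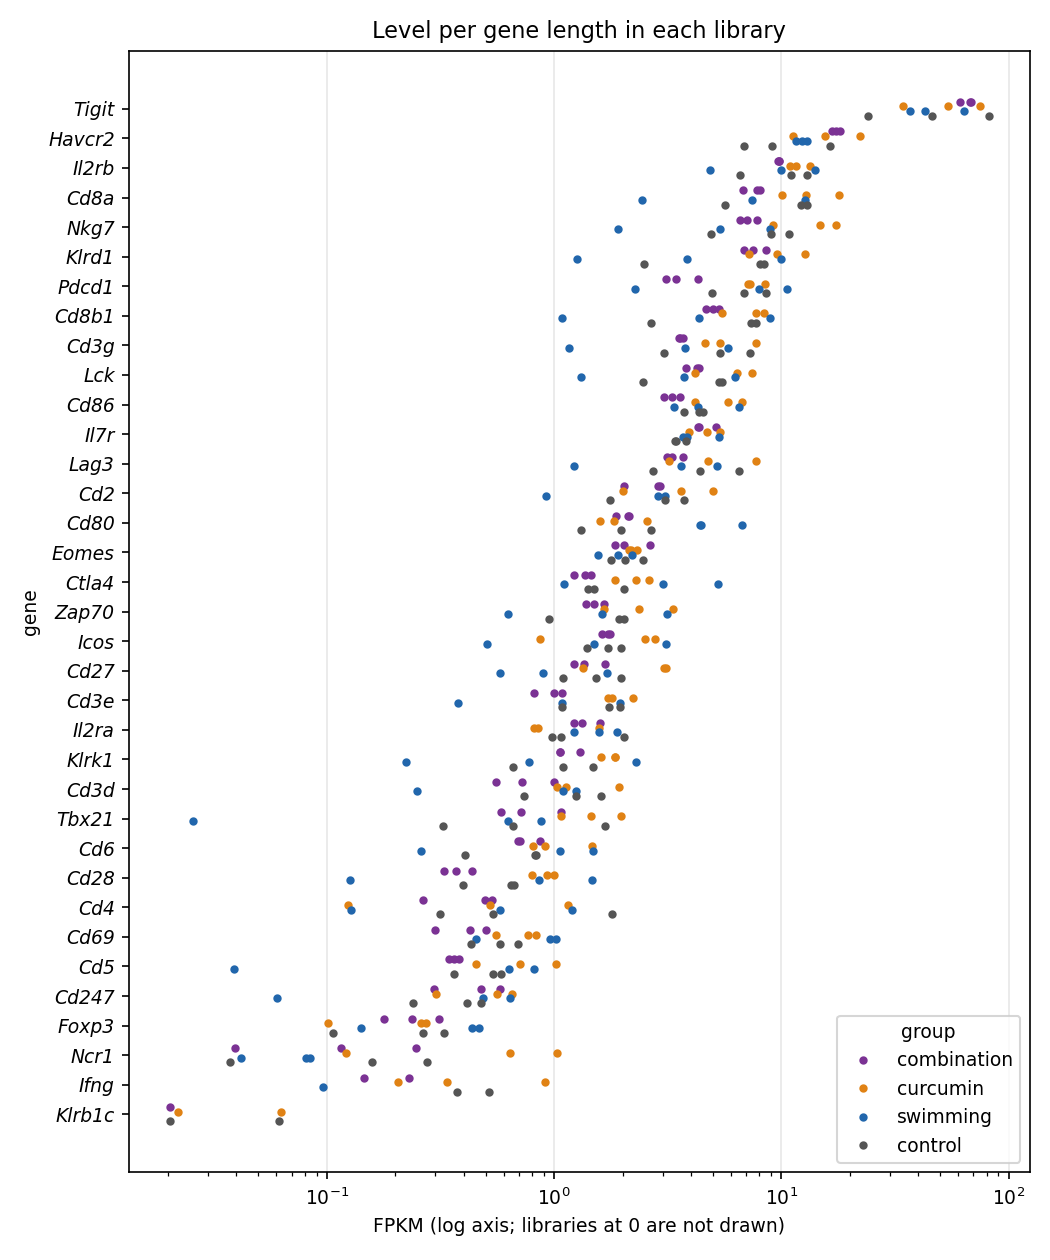
Level of each of the 35 members in FPKM (x axis, logarithmic; libraries at 0 are not drawn), genes ordered by their mean over 12 libraries; each point is a library, coloured by group. Tigit lies above all other members, between 24.1 and 81.8 FPKM, and Klrb1c is lowest at a mean of 0.0157 FPKM.

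Across libraries most of the tested members went up and down together, and libraries of one group differed widely. The library swimming 2 had the lowest CPM of all 12 for 23 of the 32 tested members, while it was the lowest for 9.79% of all 13638 tested genes. Curcumin 2 was the highest for 15 members and for 11.9% of all genes, and swimming 3 the highest for 10 members and 9.33% of all genes. The median coefficient of variation of the members between replicate libraries was 10.9% in the combination group, 29.5% in the curcumin group, 65.1% in the swimming group and 35.8% in the control group, against 7.55%, 9.44%, 11.8% and 15.9% for all tested genes in the same groups. Summed expression of 7 pan-leukocyte genes varied in the same libraries, at 429.5 CPM in swimming 2 and 740.8 CPM in swimming 3. In bulk tumour RNA, fewer T cells and less RNA per T cell cannot be told apart.

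**Figure D2:**
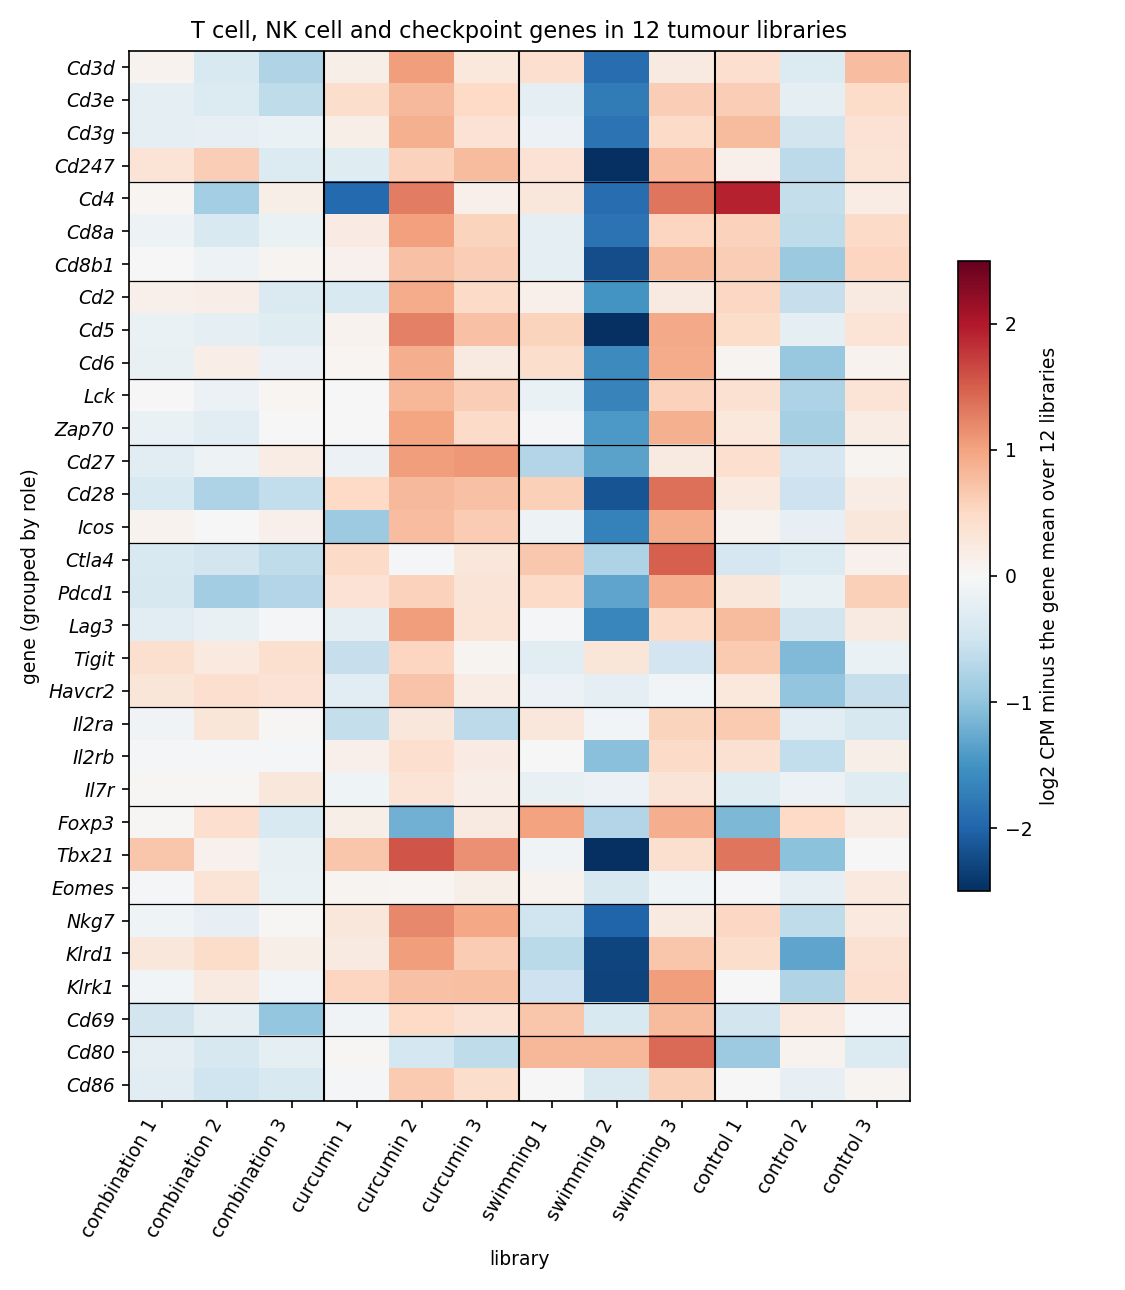
Each of the 32 tested members (rows, grouped by role) in each library (columns), as log2 CPM minus the gene's mean over 12 libraries, with colours limited to 2.5 either way. Swimming 2 is blue for most T and NK cell genes and curcumin 2 is red for most. Cd80 is red in swimming 2 and blue in curcumin 2, Tigit is red in swimming 2 and Foxp3 is blue in curcumin 2. Il7r and Eomes are pale in all libraries.

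Dividing each member by the summed FPKM of the T cell receptor complex (Cd3d, Cd3e, Cd3g and Cd247) in the same library shows which genes kept to that complex. Cd8a kept closest, with a ratio between 1.11 and 1.45 in all 12 libraries, a 1.31-fold span, although Cd8a itself spanned 7.36-fold. Lag3 spanned 1.63-fold, the kinases Lck and Zap70 1.68-fold and 1.81-fold, Cd8b1 1.90-fold, Cd2 1.91-fold and the cytotoxic granule gene Nkg7 2.03-fold. These ratios describe 12 libraries whose members share library and depth, so no test was made. Other members did not keep to the complex. The ratio spanned 8.85-fold for Tigit, 6.35-fold for Havcr2, 6.54-fold for Il7r, the interleukin-7 receptor, and 19.6-fold for Cd80. Swimming 2, with the lowest T cell receptor level, gave the highest ratio for each of these genes; without it the spans were 3.26-fold, 3.28-fold, 3.03-fold and 5.77-fold. Tigit had 39.4, 58.3 and 33.9 CPM in the swimming libraries, so its highest value of that group stood in the library with the lowest pan-leukocyte sum. Il7r itself differed by only 1.58-fold and Eomes, a T-box transcription factor of cytotoxic lymphocytes, by 1.69-fold between their highest and lowest libraries. Low counts add to the wide span of Cd4, Foxp3 and Tbx21, which had 8 to 119, 7 to 33 and 1 to 74 counts per library.

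**Figure D3:**
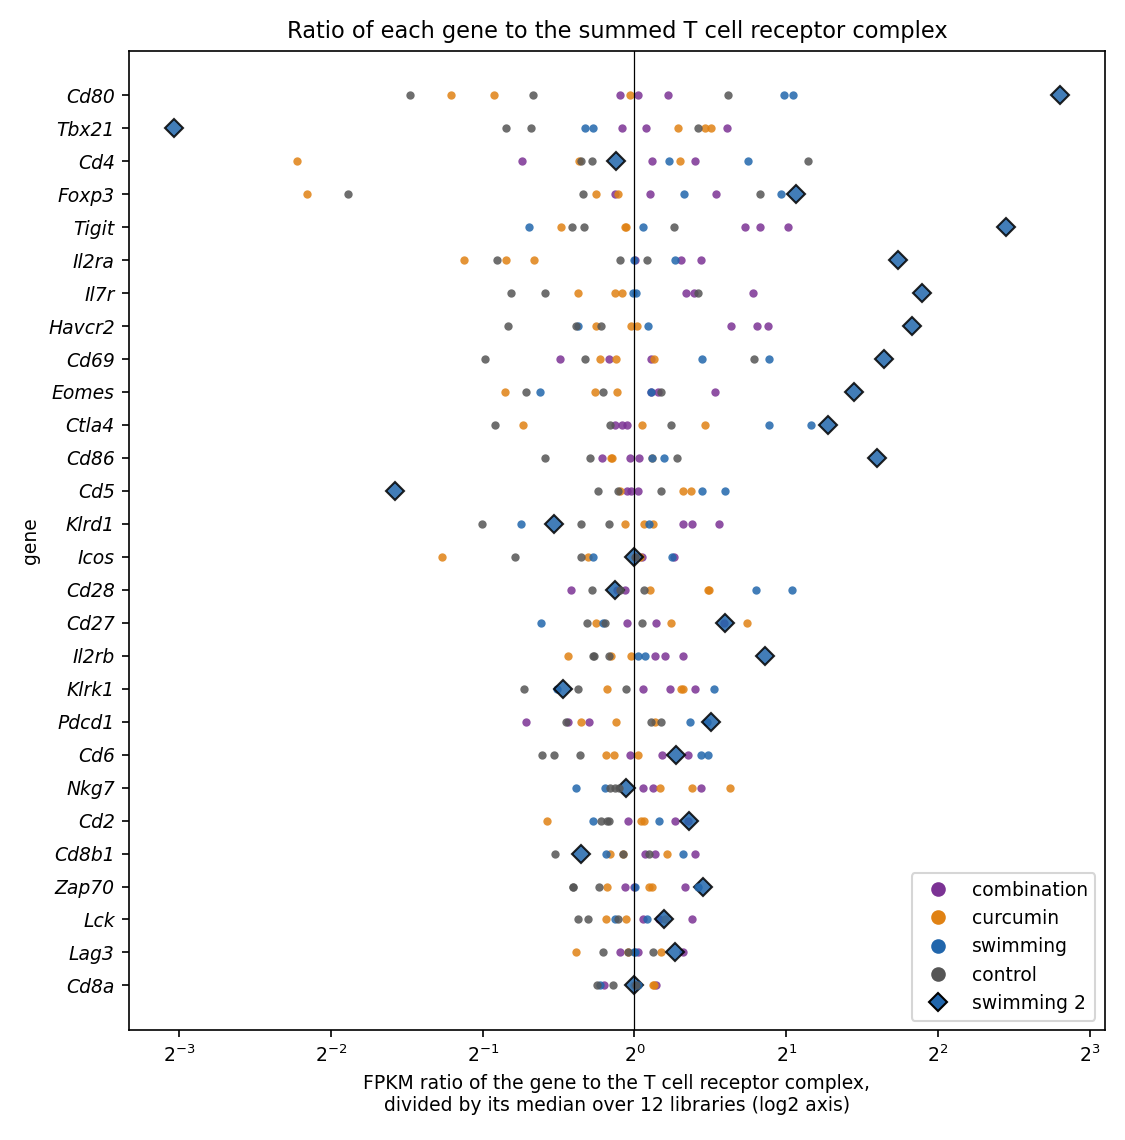
FPKM of each tested member over the summed FPKM of the 4 T cell receptor complex genes in the same library, divided by the median of that ratio over 12 libraries (x axis, log2 scale); points are libraries coloured by group, and the diamond is swimming 2. Cd8a stays within a 1.31-fold span while Cd80 and Tigit spread over 19.6-fold and 8.85-fold.

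Swimming against control asked what exercise alone did, and 1 member changed. Cd80, the costimulatory ligand of antigen-presenting cells (ENSMUSG00000075122; chromosome 16, 38275923 to 38316697, plus strand, in the coordinates of the authors' table), had 16.4, 16.3 and 24.7 CPM in the swimming libraries, against 4.88, 9.84 and 7.26 CPM in the control libraries. All 3 swimming libraries lay above all 3 control libraries, and swimming 2 was as high as swimming 1 although it was low for the T cell genes. No other member was higher in swimming without overlap, where the share of all genes was 4.09%. The means were 19.1 ± 4.84 CPM in the swimming group and 7.33 ± 2.48 CPM in the control group (SD, n = 3 each), a log2 fold change of 1.42 ± 0.26 (SE; edgeR quasi-likelihood test, Benjamini-Hochberg adjusted p = 0.048). The test called 0.293% of all genes in this comparison, 40 of 13638, so 1 of 32 members is a small count read against a small background. The call lay at the threshold. It was lost on leaving out any 1 of the 12 libraries other than control 2 (adjusted p up to 0.17), when only these 2 groups were fitted (adjusted p = 0.52) and when the combination libraries were summed into 1 sample (adjusted p = 0.19), while the log2 fold change stayed between 1.196 and 1.82 under every alternative run.

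Cd86, the other ligand of CD28 and CTLA4, did not follow Cd80. Its level was 15.7, 12.3 and 23.9 CPM in the swimming libraries, against 15.8, 13.6 and 16.5 CPM in the control libraries, and the groups overlapped. The log2 fold change was 0.22 ± 0.22 (95% interval −0.27 to 0.71, adjusted p = 0.74). The FPKM ratio of Cd80 to Cd86 was 1.03, 1.31 and 1.02 in the swimming libraries, against 0.305, 0.715 and 0.436 in the control libraries. It was 0.588, 0.615 and 0.647 in the combination libraries and 0.616, 0.272 and 0.275 in the curcumin libraries, so the swimming libraries were the only ones above 1. Of cells known to express CD80, summed macrophage markers (10 genes) were 653.6 to 1162 CPM in swimming and 865.9 to 2010 CPM in control libraries, and summed dendritic cell markers (9 genes) 68.1 to 125 CPM in swimming and 89.4 to 116 CPM in control libraries. Among these markers Mertk, a receptor with which macrophages engulf dead cells, rose (log2 fold change 0.86 ± 0.16, adjusted p = 0.043). It was the 1 macrophage marker of 10 with a positive fold change; the other 9 were negative and did not pass the test, and the median of the 10 was −0.435, against −0.011 for all tested genes. The part of these cells in the Cd80 result was not tested.

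No other member passed the test between swimming and control. Ctla4, the inhibitory receptor that binds CD80 and CD86, had 6.99, 2.57 and 12.3 CPM in the swimming libraries, against 3.30, 3.47 and 4.72 CPM in the control libraries. Swimming 1 and swimming 3 were above every control library and swimming 2 was below. The log2 fold change of 0.97 ± 0.41 had an adjusted p of 0.33, and without both swimming 2 and control 2 it was 1.33 with an adjusted p of 0.020. Cd3e had 4.40, 1.54 and 7.95 CPM in the swimming libraries, against 7.93, 4.40 and 7.08 CPM in the control libraries, and Cd8a 26.9, 8.81 and 46.2 CPM in the swimming libraries, against 47.1, 20.5 and 44.2 CPM in the control libraries. Swimming 2 was below every control library for both genes, while the other swimming libraries lay inside or at the edge of the control range. The log2 fold changes were −0.43 ± 0.42 and −0.40 ± 0.44. Over the 32 tested members, 16 had a positive and 16 a negative fold change, with a median log2 fold change of 0.006, against −0.011 for all tested genes.

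Curcumin alone against control gave higher values for most members, none of which passed the test. The edgeR test called 0 members and 0% of all genes, and DESeq2 also called 0 members. An unadjusted edgeR p under 0.05 was found for 1 of 32 members and for 11.1% of all genes. Of 32 tested members, 28 had a positive log2 fold change, with a median of 0.34, while 50.3% of all tested genes were positive with a median of 0.002. The 28 genes largely share their variation between libraries, so this count is not 28 separate observations. Pan-leukocyte and macrophage markers moved the same way without passing the test. All 7 pan-leukocyte genes were positive with a median log2 fold change of 0.307, and 8 of 10 macrophage genes with a median of 0.226. Mast cell and basophil genes and plasma cell genes also had positive medians (1.60 and 1.44). Of tested neutrophil genes 6 of 9 were negative (median −0.226), as were 2 of 2 tested B cell genes (median −0.161). Tested dendritic cell genes had a median of 0.07. The summed pan-leukocyte level was 601.3 to 887.1 CPM in the curcumin libraries and 514.3 to 621.6 CPM in the control libraries, and its part in the members' values was not tested. Cd27, a costimulatory receptor of the TNF receptor family, had 3.11, 7.10 and 7.23 CPM in the curcumin libraries, against 4.58, 2.55 and 3.57 CPM in the control libraries. Curcumin 2 and curcumin 3 were above all control libraries and curcumin 1 was inside their range (log2 fold change 0.69 ± 0.40, adjusted p = 0.52). Nkg7, a granule membrane protein of NK and cytotoxic T cells, had 8.39, 15.9 and 13.6 CPM in the curcumin libraries, against 9.89, 4.46 and 8.23 CPM in the control libraries. These groups overlapped as well, again through curcumin 1 (log2 fold change 0.73 ± 0.42, adjusted p = 0.52). The groups did not overlap for Cd28, Klrk1 and Il7r, all higher with curcumin, as for 8.17% of all genes. Il7r had 18.2, 25.1 and 22.0 CPM in the curcumin libraries, against 16.1, 17.8 and 15.9 CPM in the control libraries (log2 fold change 0.37 ± 0.16, adjusted p = 0.43).

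Cd4 was the member with the most negative value in that comparison and also the least certain. It had 0.497, 4.64 and 2.10 CPM in the curcumin libraries, against 7.26, 1.27 and 2.18 CPM in the control libraries. The highest and the lowest of all 12 libraries were control 1 and curcumin 1, and the 95% interval of its log2 fold change ran from −2.35 to 1.19. The FPKM ratio of Cd8a to Cd4 was 81.6 in curcumin 1 and 7.18 in control 1, with all other libraries between 10.6 and 25.5.

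The combination of curcumin and swimming against control, the comparison with the untreated tumours, called no member. The edgeR test called 0 of 32, DESeq2 called 0 and 3 members had an unadjusted p under 0.05, whereas 5.17% of all genes, 705 of 13638, were called here. An unadjusted edgeR p under 0.05 was found for 27% of all genes, so 3 of 32 members lies below that share. The 3 members were Pdcd1, Havcr2 and Il7r. Pdcd1, the gene of the checkpoint receptor PD-1 (ENSMUSG00000026285), had 8.29, 5.99 and 6.62 CPM in the combination libraries, against 13.2, 9.61 and 16.6 CPM in the control libraries. All combination libraries were below all control libraries. The means were 6.96 ± 1.19 CPM in the combination group and 13.2 ± 3.49 CPM in the control group (SD, n = 3 each), with a log2 fold change of −0.89 ± 0.40 and an adjusted p of 0.17. Leaving out swimming 2, which enters this comparison only through the shared estimate of spread, gave −0.88 with an adjusted p of 0.034.

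Havcr2 lay on the other side. It had 45.4, 49.2 and 47.3 CPM in the combination libraries, against 44.5, 18.6 and 24.6 CPM in the control libraries, and all combination libraries were higher, though control 1 was close (log2 fold change 0.72 ± 0.28, adjusted p = 0.13). Without control 1 the log2 fold change was 1.16 with an adjusted p of 0.011, the only left-out library that made it a call. Il7r had 20.1, 20.1 and 24.1 CPM in the combination libraries, against the control values above, and did not overlap them (log2 fold change 0.39 ± 0.16, adjusted p = 0.15). Among all members 2 were higher without overlap, where the share of all genes was 14.2%, and 2 (Pdcd1 and Cd86) were lower without overlap, where the share was 17.7%. Tigit, the highest member, had 62.4, 56.4 and 62.4 CPM in the combination libraries, against 75.1, 22.1 and 42.1 CPM in the control libraries. The control libraries spanned 3.40-fold and enclosed the combination values, and the log2 fold change was 0.41 ± 0.37 (95% interval −0.39 to 1.20). Tigit was described for its level, and like Cd28, Cd86 and Tbx21 it was chosen for description after its values were seen.

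The T cell receptor complex and coreceptors showed the same lack of calls. Cd3e had 4.42, 4.09 and 3.34 CPM in the combination libraries, against 7.93, 4.40 and 7.08 CPM in the control libraries (log2 fold change −0.68 ± 0.42, adjusted p = 0.31). Combination 1 lay just above control 2, so the groups overlapped by 1 library. Cd8a had 29.1, 24.5 and 28.4 CPM in the combination libraries, all between control 2 and the other control libraries (log2 fold change −0.41 ± 0.44, adjusted p = 0.57). Cd4 had 1.996, 1.07 and 2.14 CPM in the combination libraries and Foxp3 1.09, 1.42 and 0.819 CPM, against 0.488, 1.505 and 1.21 CPM for Foxp3 in the control libraries. Combination 2 had less Cd4 than any control library and the other Cd4 and all Foxp3 values sat inside the control range; the 95% interval of the log2 fold change of Foxp3 ran from −1.11 to 1.26. Cd6, a scavenger-receptor glycoprotein of T cells, had 5.504, 6.93 and 5.61 CPM in the combination libraries and 6.53, 3.24 and 6.60 CPM in the control libraries. Zap70 had 4.48, 4.15 and 4.98 CPM in the combination libraries and 6.04, 2.84 and 5.75 CPM in the control libraries. For Cd6 and Zap70 the control range enclosed all or most of the combination values, and their log2 fold changes were 0.17 ± 0.48 and −0.07 ± 0.46. The 95% interval lay within 2-fold either way for 8 of 32 members in this comparison, among them Lck, Il2rb, Il7r and Cd86, so for the other members a 2-fold difference in at least 1 direction lay within the interval.

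Combination against curcumin, which adds swimming to the same curcumin dose, showed the T cell genes at lower values with adjusted p-values above the threshold. The edgeR test called 0 members, DESeq2 called 0 and 5 had an unadjusted p under 0.05, with 0.895% of all genes called. An unadjusted edgeR p under 0.05 was found for 18.2% of all genes, so 5 of 32 members lies near that share. Of the 32 tested members 25 had a negative log2 fold change, with a median of −0.54, against −0.007 for all tested genes, of which 48.7% were positive. In 15 members every combination library lay below every curcumin library, and the same held for 22.9% of all genes. Pdcd1 had 8.29, 5.99 and 6.62 CPM in the combination libraries, against 14.1, 16.3 and 13.7 CPM in the curcumin libraries. The groups were far apart, yet the log2 fold change of −1.03 ± 0.40 had an adjusted p of 0.20. Cd28, the receptor of the second signal, had 2.66, 2.02 and 2.27 CPM in the combination libraries, against 4.91, 6.11 and 5.72 CPM in the curcumin libraries. Here too no libraries overlapped (log2 fold change −1.22 ± 0.56, adjusted p = 0.27). Cd3e, with 7.03, 9.09 and 7.30 CPM in the curcumin libraries, was above all of its combination values as well (log2 fold change −0.94 ± 0.42, adjusted p = 0.26).

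Cd86 and Cd69 were the other members with an unadjusted p under 0.05 between combination and curcumin. Cd86 had 13.1, 11.1 and 12.04 CPM in the combination libraries, against 15.2, 24.6 and 21.3 CPM in the curcumin libraries (log2 fold change −0.71 ± 0.23, adjusted p = 0.13). Cd69, an early activation marker, had 2.78, 3.26 and 1.95 CPM in the combination libraries, against 3.61, 5.44 and 5.00 CPM in the curcumin libraries (log2 fold change −0.76 ± 0.34, adjusted p = 0.26). Neither gene overlapped between the groups. Whether these genes passed depended on which libraries set the spread: fitted on the combination and curcumin libraries alone, edgeR called 9 members, all lower (Cd3e, Cd3g, Cd8a, Cd28, Ctla4, Pdcd1, Nkg7, Klrk1 and Cd86), and 2083 genes in all. Without swimming 2 it called Pdcd1 (adjusted p = 0.036) and 194 genes in all, and without both swimming 2 and control 2 it called 6 members and 1227 genes in all. The summed pan-leukocyte level moved the same way, at 445.8 to 477.1 CPM in the combination libraries and 601.3 to 887.1 CPM in the curcumin libraries, as did the summed macrophage markers, at 921.6 to 965.2 CPM in combination and 1109 to 1752 CPM in curcumin libraries. The part of leukocyte content in these values was not tested. Of 7 pan-leukocyte genes and 10 macrophage genes, none passed the edgeR test there.

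**Figure D4:**
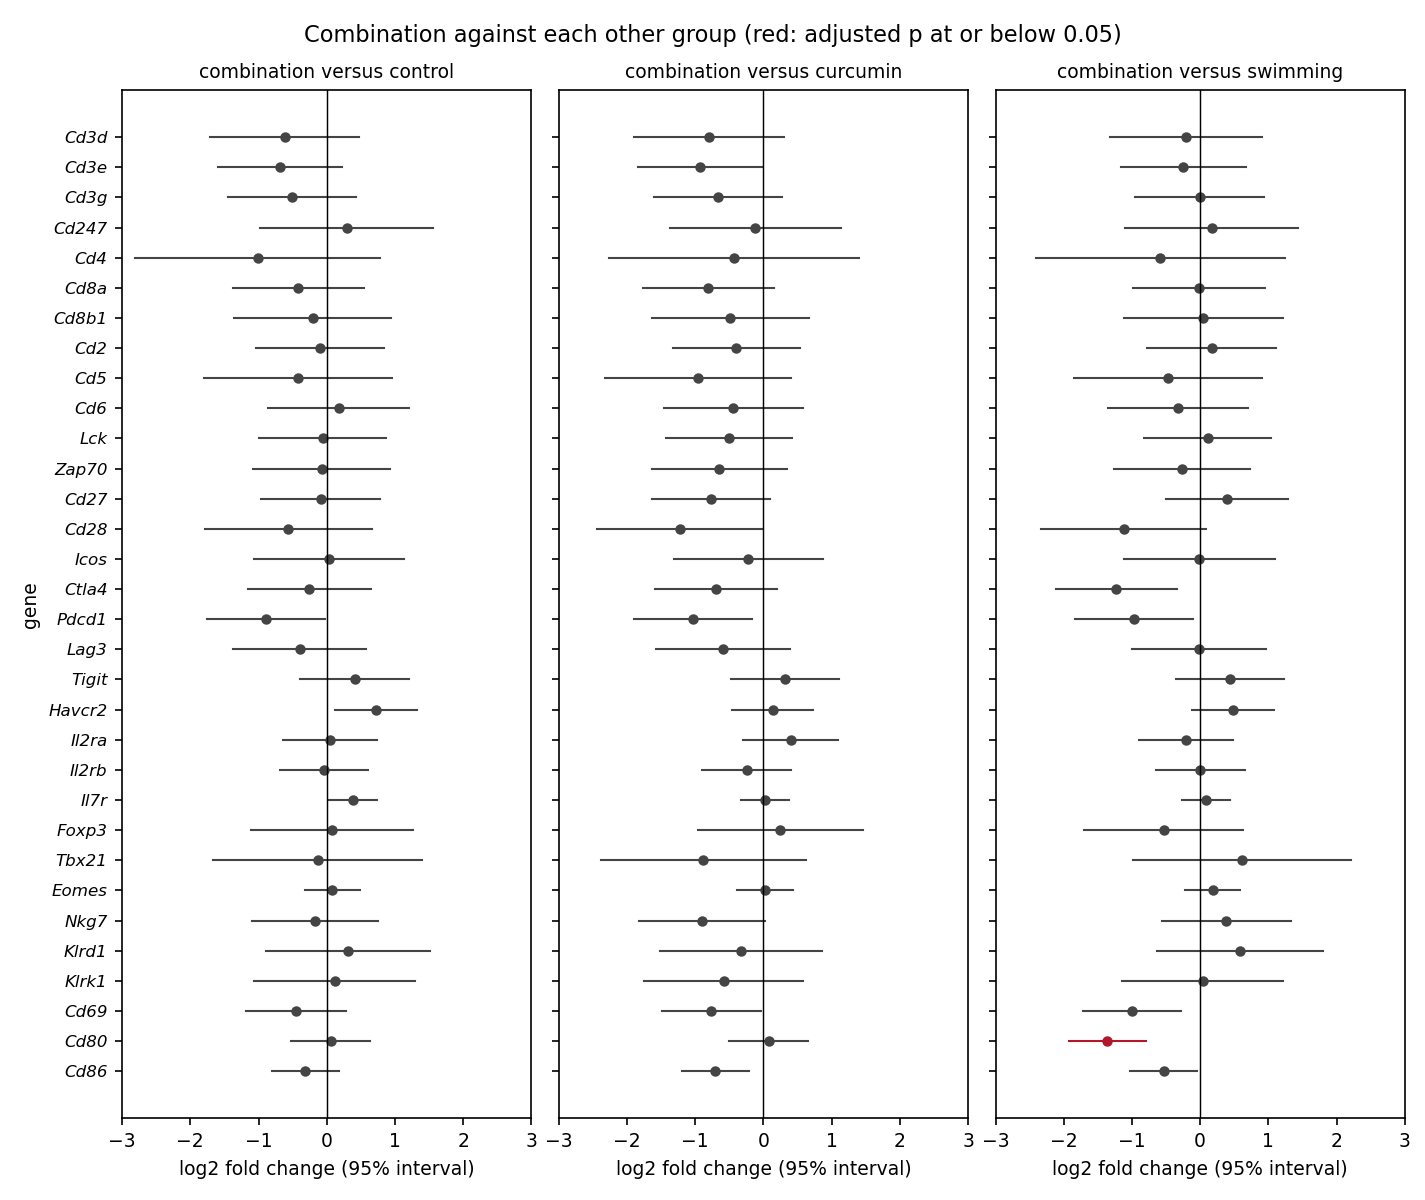
Log2 fold change of the 32 tested members in the combination group against control, curcumin and swimming (x axis; points, with 95% intervals as lines; red where the adjusted p was at or below 0.05). Values lean to the left against curcumin, with a median of −0.54, and Cd80 against swimming, at −1.36, is the only red point.

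Combination against swimming, which adds curcumin to the same exercise, called Cd80 and no other member. Cd80 had 7.80, 6.93 and 7.88 CPM in the combination libraries, against 16.4, 16.3 and 24.7 CPM in the swimming libraries. The groups did not overlap, and the combination values lay inside the control range of 4.88 to 9.84 CPM. Cd80 fell by 1.36 ± 0.26 on the log2 scale (adjusted p = 0.017), and 6.88% of all genes, 938 of 13638, were called in this comparison. The call was kept without any of the control or curcumin libraries and without swimming 2. It was lost without swimming 1, swimming 3 or any of the combination libraries (adjusted p up to 0.083) and when the combination libraries were summed (adjusted p = 0.47). Against curcumin, Cd80 was higher in the swimming group, at 16.4, 16.3 and 24.7 CPM, against 9.45, 6.77 and 5.92 CPM in the curcumin libraries, without overlap. It rose by 1.44 ± 0.26 (adjusted p = 0.025), where 1.9% of all genes were called. That call was kept in 5 of 12 left-out libraries and lost without curcumin 2, curcumin 3, swimming 1, swimming 3 or any combination library (adjusted p up to 0.13). These comparisons share the swimming libraries, so they are not separate evidence. In the combination and the curcumin group Cd80 had log2 fold changes of 0.06 ± 0.26 and −0.02 ± 0.27 against control.

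Other members were called between combination and swimming only under other settings. DESeq2 on all 12 libraries called Ctla4 (adjusted p = 0.034) and Cd69 (adjusted p = 0.044) beside Cd80, with 1886 genes in all. Cd69 was also called by edgeR without control 2 (adjusted p = 0.045; 2730 genes in all), and Havcr2, higher in the combination group, when only these groups were fitted (log2 fold change 0.49, adjusted p = 0.0066; 2719 genes in all). Ctla4 had 3.39, 3.20 and 2.84 CPM in the combination libraries, against 6.99, 2.57 and 12.3 CPM in the swimming libraries (log2 fold change −1.23 ± 0.41, adjusted p = 0.083). Swimming 1 and swimming 3 were above and swimming 2 below all combination libraries. Pdcd1 had 15.3, 4.38 and 20.5 CPM in the swimming libraries and showed the same split around its combination values (log2 fold change −0.96 ± 0.40, adjusted p = 0.14). Cd69, with 6.22, 2.96 and 6.64 CPM in the swimming libraries, gave −0.999 ± 0.33 (adjusted p = 0.083). Without swimming 2 the test called Cd28, Ctla4, Pdcd1, Cd69 and Cd80, all lower in the combination group, with Ctla4 at −1.63 (adjusted p = 0.0093) and Pdcd1 at −1.38 (adjusted p = 0.0078), and 1017 genes in all. The whole group of 32 had a median log2 fold change of −0.013 against swimming and −0.005 for all genes, with 14 positive and 18 negative.

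Relative to the T cell receptor complex, Ctla4 and Pdcd1 did not show the dip of swimming 2. The FPKM ratio of Ctla4 to the complex was 0.239, 0.233 and 0.227 in the combination libraries, 0.342, 0.149 and 0.256 in the curcumin libraries, 0.456, 0.598 and 0.555 in the swimming libraries, and 0.130, 0.293 and 0.221 in the control libraries. All 3 swimming libraries, swimming 2 included, were above the other 9. The ratio of Pdcd1 to the complex was 0.704, 0.526 and 0.637 in the combination libraries, 0.950, 0.678 and 0.796 in the curcumin libraries, 1.21, 1.23 and 1.11 in the swimming libraries, and 0.632, 0.975 and 0.934 in the control libraries. Again the swimming libraries were the highest 3 of 12. These ratios were looked at after the library values were known, rest on 40 to 198 counts for Ctla4 and 68 to 330 for Pdcd1 per library, and were not tested. In swimming 2 the complex they are divided by had 7 counts for Cd3d, 24 for Cd3e, 59 for Cd3g and 5 for Cd247. The ratio of Cd80 was also highest in the swimming libraries, at 0.673, 2.38 and 0.701, against at most 0.521 (control 2) elsewhere.

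**Figure D5:**
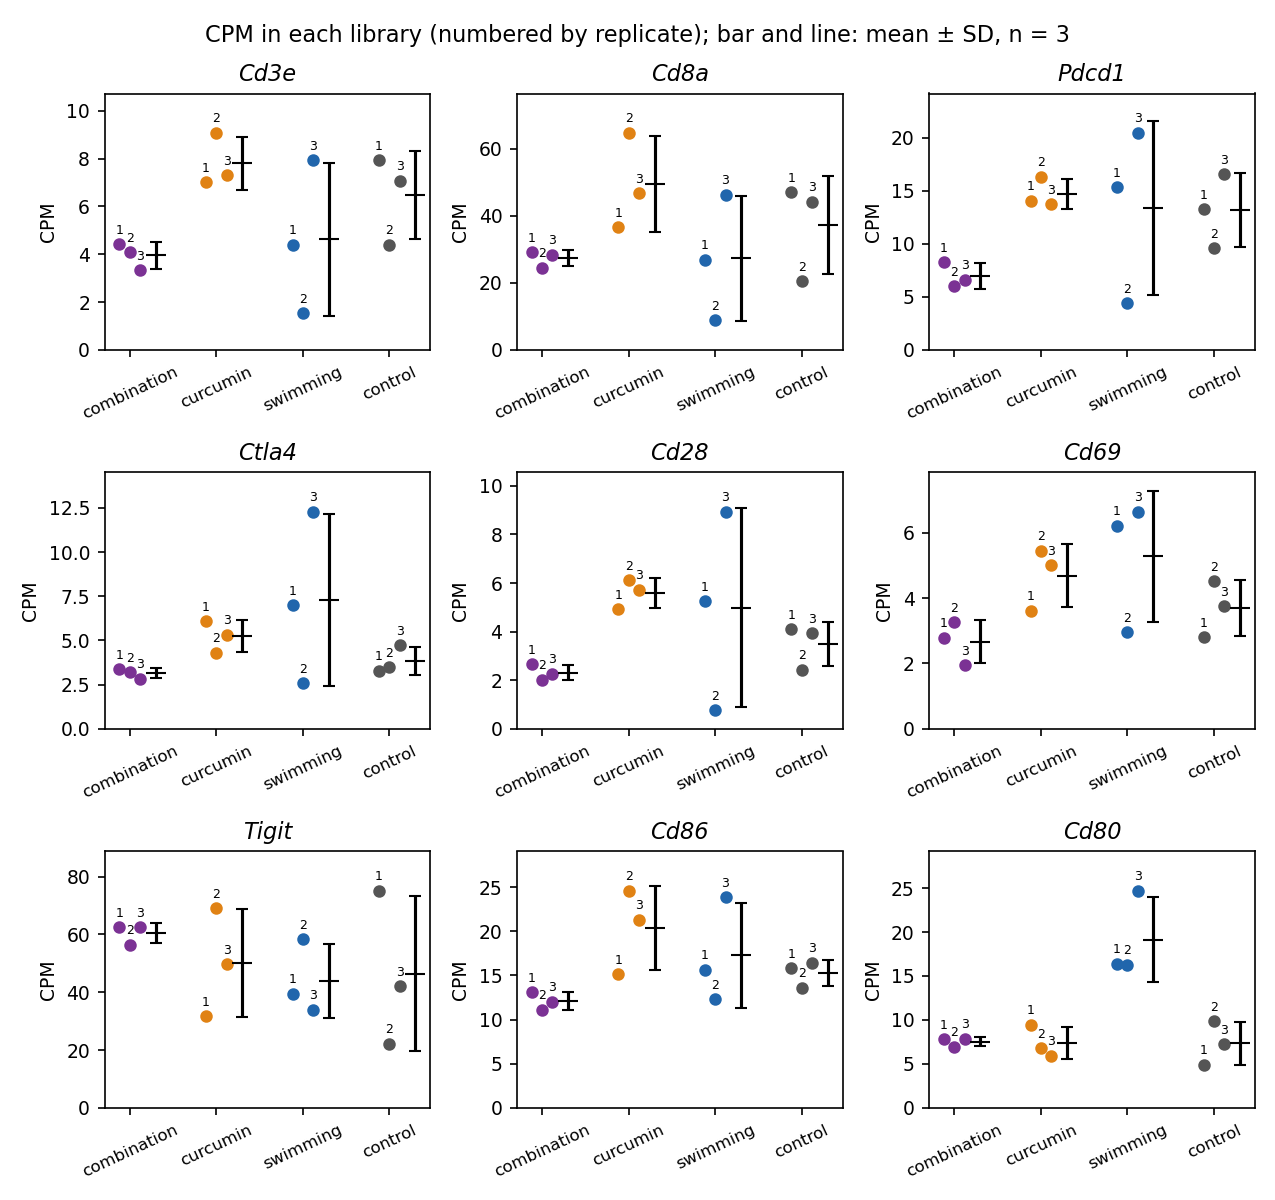
CPM of 9 members in each library (points, numbered by replicate) with the mean ± SD of 3 libraries beside them; groups from left to right are combination, curcumin, swimming and control. Cd80 is at 16.3 to 24.7 CPM in the swimming libraries and at most 9.84 CPM elsewhere, while Cd3e, Cd8a, Pdcd1, Ctla4 and Cd28 are spread widely within the swimming group.

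The interaction asked whether the combination departed from the sum, on the log2 scale, of the curcumin and the swimming differences. The edgeR test called 0 members and 0.139% of all genes. An unadjusted p under 0.05 was found for 5 of 32 members and for 11.1% of all genes. DESeq2 called 1 member, Cd80 (adjusted p = 0.044), and the share of all genes that DESeq2 called is not given here. The 5 members with an unadjusted p under 0.05 were Cd80, Cd86, Cd28, Ctla4 and Cd69, and their estimates were all negative. Cd80 had −1.34 ± 0.37 (adjusted p = 0.20), Ctla4 −1.66 ± 0.58 (adjusted p = 0.31), Cd69 −1.31 ± 0.47 (adjusted p = 0.32), Cd86 −0.93 ± 0.32 (adjusted p = 0.30) and Cd28 −1.78 ± 0.78 (adjusted p = 0.43). Of 32 tested members 29 were negative with a median of −0.31, against 0.003 for all genes. Without swimming 2 the edgeR test called Cd28, Ctla4 and Pdcd1 among 95 genes in all, and without control 2 it called Cd80 among 448, against 19 genes with all libraries.

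The NK cell genes were partly below what the libraries could show. Nkg7, Klrd1 (CD94, the partner chain of NKG2 receptors) and Klrk1 were tested, but cytotoxic T cells express them as well. Nkg7 had 4.92, 1.74 and 8.13 CPM in the swimming libraries, against 8.39, 15.9 and 13.6 CPM in the curcumin libraries, with no overlap (log2 fold change −1.29 ± 0.43, adjusted p = 0.12). DESeq2 called Nkg7 (adjusted p = 0.042), and the share of all genes that DESeq2 called there is not given here. Nkg7 and Tbx21 were the 2 members lower in swimming than in curcumin without overlap, where the share of all genes was 21.4%. Of 32 tested members 26 had a negative log2 fold change there, with a median of −0.317, against −0.02 for all tested genes, of which 47.2% were positive. The members largely share their variation between libraries, so this count is not 26 separate observations. Tbx21, the T-box factor of type 1 lymphocytes, had 1.55, 0.0643 and 2.17 CPM in the swimming libraries, against 2.67, 4.91 and 3.62 CPM in the curcumin libraries, and its swimming 2 value was a single count.

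The 3 members that failed the filter were read as counts. Ncr1, which encodes NKp46, the receptor most specific to NK cells among the members, had 1, 3 and 6 counts in the combination libraries, 3, 24 and 15 in the curcumin libraries, 2, 1 and 2 in the swimming libraries and 4, 1 and 7 in the control libraries. Summed over a group this was 0.203 CPM in combination (exact Poisson 95% interval 0.0973 to 0.373), 0.906 CPM in curcumin (0.653 to 1.23), 0.106 CPM in swimming (0.0345 to 0.248) and 0.239 CPM in control (0.124 to 0.418). The interval covers counting error only, and within the curcumin group curcumin 1 was inside the control range of 1 to 7 counts. Ifng, the effector cytokine of T and NK cells, had 0, 5 and 3 counts in the combination libraries, 7, 4 and 18 in the curcumin libraries, 0, 0 and 2 in the swimming libraries and 11, 0 and 8 in the control libraries. Curcumin 3 and control 1 were the highest and groups overlapped except swimming and curcumin. Fitted without the filter, the edgeR adjusted p-values of Ncr1 and Ifng between swimming and curcumin were 0.11 and 0.18. With control 2 left out, Ncr1 passed the filter and was called there (log2 fold change −2.96, edgeR adjusted p = 0.045), so its outcome depended on the libraries kept. Klrb1c, an NK cell lectin with close relatives that could share its reads, had 0 to 3 counts in every library and 0 in all swimming libraries. There 3 counts over the group, taken as the limit that a count of 0 allows, are 0.0637 CPM, and the exact Poisson 95% interval reaches 0.0783 CPM.

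Genes of the same pathways outside the member list moved in few cases. Of 28 further genes of T cell receptor signalling and T cell identity, 25 were tested and none passed in any of the 6 pairwise comparisons or the interaction; their median log2 fold change was 0.44 in curcumin and −0.27 in combination, each against control. Of 20 ligands of checkpoint and costimulatory receptors, 16 were tested and 3 changed in combination against control, where 5.17% of all genes were called. Cd276 (B7-H3, a B7 family ligand) had 197, 222 and 196 CPM in the combination libraries, against 152, 133 and 144 CPM in the control libraries, and rose by 0.55 ± 0.11 on the log2 scale (adjusted p = 0.027). Lgals9 (galectin-9, which binds TIM-3) rose by 0.46 ± 0.11 (adjusted p = 0.043). Vsir (VISTA, an inhibitory molecule of myeloid and T cells) had 72.5, 66.7 and 70.3 CPM in the combination libraries, against 110, 125 and 99.0 CPM in the control libraries, and fell by 0.66 ± 0.15 (adjusted p = 0.038). None of these ligand genes overlapped between combination and control, as for 14.2% of all genes on the higher and 17.7% on the lower side. In combination against swimming, 1 of the 16 tested ligands was called higher (edgeR adjusted p = 0.027), where 6.88% of all genes were called. Cd274, the gene of the PD-1 ligand PD-L1, had 46.2, 51.2 and 53.6 CPM in the combination libraries, against 64.3, 44.9 and 43.4 CPM in the control libraries, and overlapped.

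Among 20 further NK cell receptor and cytotoxicity genes, of which 15 were tested, the adaptor genes Tyrobp (DAP12) and Fcer1g passed. Tyrobp had 23.4, 22.7 and 20.3 CPM in the combination libraries, against 31.2, 48.8 and 37.4 CPM in the curcumin libraries, and fell by 0.78 ± 0.15 (adjusted p = 0.034). Fcer1g had 18.6, 18.6 and 14.8 CPM in the combination libraries, against 27.7, 41.1 and 33.1 CPM in the curcumin libraries, and fell by 0.93 ± 0.16 (adjusted p = 0.026). Fcer1g also fell in swimming against curcumin, by 0.73 ± 0.16 (adjusted p = 0.045). Both adaptors serve NK cells and myeloid cells alike, and the macrophage marker values given above moved in the same direction between combination and curcumin. Of 17 genes of the IL-2, IL-7 and IL-15 axis, 15 were tested. Socs1, an inhibitor of cytokine signalling, had 7.64, 6.18 and 7.51 CPM in the swimming libraries, against 16.9, 22.8 and 19.2 CPM in the curcumin libraries, and fell by 1.40 ± 0.22 (adjusted p = 0.017). Jak3, the kinase of the common cytokine receptor chain, fell by 0.37 ± 0.10 (adjusted p = 0.042) in combination against swimming. None of 12 further costimulatory and checkpoint receptors passed in any comparison.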

How the data were processed

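Messenger RNA abundance in 12 tumour libraries, 3 in each of 4 groups, was read from 1 table of raw counts and FPKM values that the authors deposited. Per the labels' protocol, reads were trimmed, mapped with HISAT2 2.0.5 and counted per gene with HTSeq 0.9.1, and the authors scaled each count by gene length and library total to give FPKM. The labels' protocol names mm9 and the submitters' processing notes name GRCm39, so coordinates are given as the table has them, with no build. The notes also list cutadapt, TopHat2 and DESeq 1.30.0, and whether strand was used in counting is not given in the sources used here. CPM is the deposited count scaled to the library's summed counts.

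Counts were filtered with filterByExpr (minimum count 10, minimum total 15; 13638 genes kept), scaled by TMM and tested with edgeR 4.0.16 in R 4.3.3, quasi-likelihood, on all 12 libraries with 1 mean per group; genes at a Benjamini-Hochberg adjusted p of 0.05 or less over all tested genes were called. The procedure was tested on simulated data. There were 6 pairwise comparisons and the interaction. Fold changes are log2, errors are SE for fold changes and SD for CPM. Other settings tried were a fit on only the groups compared, RLE scaling, DESeq2 1.42.0, every gene unfiltered, the replicate number as a block, each library left out, control 2 and swimming 2 left out together, and the combination libraries summed. The pair left out together was picked with marker levels known, and the members and gene lists were chosen with earlier results of these data known. Values in every library are given for Cd80, the member that was called. For the member of each role with the smallest p against control, library values are given in the comparisons described, not always in every group. The same holds for Cd3e, Cd8a, Cd4, Foxp3, Pdcd1, Ctla4, Ncr1 and Ifng. Companion genes named as changed were called, but not every called companion gene is named. Cd274 was named after its values were seen. Replicate libraries differed by 3.61 to 68.4 times sampling noise (chi-square per degree of freedom). Each was counted separately, though a spread above sampling noise does not show that they come from separate mice. No column of other samples was present.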

Additional observations from a re-analysis of the deposited data

How the results depend on the processing

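Counts of called members depended on which libraries set the spread. With each library left out in turn, the count was 0 to 1 for swimming against control (1 in the fit reported), 0 for curcumin against control, 0 to 1 for combination against control, 0 to 1 for combination against curcumin, 0 to 5 for combination against swimming (1 in the fit reported), 0 to 3 for swimming against curcumin (1 in the fit reported) and 0 to 3 for the interaction. The 3 in swimming against curcumin, without control 2, were Cd80, Nkg7 and Ncr1, the last of which failed the filter with all 12 libraries. Without control 2 and swimming 2 together the counts were 2, 0, 1, 6, 8, 3 and 6 in the same order, of 1051, 36, 796, 1227, 3133, 2079 and 984 genes called in all. Fitted on only the groups compared, they were 0 for swimming against control, 9 for combination against curcumin and 2 for combination against swimming. DESeq2 called 3 in combination against swimming, 2 in swimming against curcumin and 1 in the interaction. The number of all genes that DESeq2 called is given above only for combination against swimming. With the combination libraries summed, no member was called in swimming against control, combination against swimming or swimming against curcumin. The counts of all called genes moved as well: over the left-out libraries they ran from 0 to 639 for swimming against control (40 in the fit reported), 4 to 2267 for combination against control (705), 0 to 10 for curcumin against control (0), 2 to 719 for combination against curcumin (122), 28 to 2730 for combination against swimming (938), 3 to 1580 for swimming against curcumin (259) and 0 to 448 for the interaction (19). Some uncalled values changed sign. Cd8a in swimming against control ran from −0.996 to 0.021 over the left-out libraries. Cd80 ran from −0.24 to 0.29 in curcumin against control, from −0.17 to 0.36 in combination against control and from −0.06 to 0.29 in combination against curcumin, and was 0.29 in curcumin against control without control 2 and swimming 2. The cause was not tested.

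The libraries carry replicate numbers 1 to 3 in every group. Deviations of same-numbered libraries from their group means had correlations of −0.25 to 0.16, and the fit reported used no pairing. Whether same-numbered libraries share a day or batch was not tested. With the replicate block edgeR called 0 members in swimming against control, 0 in swimming against curcumin and 1, Cd80, in combination against swimming (adjusted p = 0.034). Scaling by RLE moved no member by more than 0.013 on the log2 scale and, like leaving out the filter, kept the counts of called members. Depth limits Ifng, Ncr1 and Klrb1c, and the spread between libraries limits the rest: the median SE of a member's log2 fold change was 0.43 against control.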

Other observations

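Summed marker levels of other cell types differed between the same groups. In combination against swimming all 7 endothelial genes rose, among them Plvap by 1.27 ± 0.16 and Pecam1 by 1.03 ± 0.15 (edgeR adjusted p = 0.0045 and 0.0069), and their sum was 403.3 to 459.8 CPM in the combination libraries and 131.7 to 214.7 CPM in the swimming libraries. In swimming against curcumin 4 of these genes fell. The neutrophil genes S100a8, S100a9 and Retnlg fell in combination against control, by 2.80 ± 0.66, 2.68 ± 0.66 and 3.12 ± 0.58, and also against swimming, while the sum of 10 neutrophil genes was 449.9 to 474.6 CPM in the combination libraries and 344.9 to 363.9 CPM in the control libraries. The sum ran against the list, of which 8 of 9 tested genes were negative with a median log2 fold change of −1.66: Mmp9, a matrix protease not limited to neutrophils, had 426.6, 408.1 and 431.5 CPM in the combination libraries and 295.1, 83.5 and 284.8 CPM in the control libraries (0.97 ± 0.36, adjusted p = 0.12). Of 8 tested dendritic cell genes, Zbtb46 fell in combination against control (0.50 ± 0.13, adjusted p = 0.049). Summed skeletal muscle genes ran from 107.8 to 112 CPM in the combination libraries, 352 to 441.3 CPM in the curcumin libraries, 64.9 to 191.8 CPM in the swimming libraries and 41.2 to 493.1 CPM in the control libraries. Summed fibroblast genes ran from 5256 to 5723 CPM in combination, 4509 to 5481 CPM in curcumin, 1839 to 3274 CPM in swimming and 1215 to 4754 CPM in control libraries. Summed adipocyte genes were at 23.8 to 25.8 CPM in combination, 8.83 to 9.58 CPM in curcumin, 8.61 to 9.75 CPM in swimming and 6.47 to 14.8 CPM in control libraries. Their sum hides single genes. Of 4 tested adipocyte genes, all were positive in combination against control, with a median log2 fold change of 6.04, and edgeR called 3. In swimming against control 3 were positive and 1 negative, with a median of 3.97, and 0 were called. Summed mast cell and basophil genes were at most 32.3 CPM and plasma cell genes between 152.4 and 193.6 CPM in any library. The part of these cell types in the results above was not tested.

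Granzyme B and perforin, the killing proteins of cytotoxic T and NK cells, varied widely outside the combination group. Gzmb had 86.8, 86.0 and 82.2 CPM in the combination libraries, 39.8, 130 and 78.7 CPM in the curcumin libraries, 80.5, 33.5 and 119 CPM in the swimming libraries and 148, 35.4 and 50.4 CPM in the control libraries. The combination libraries differed little and lay inside the range of every other group. Prf1 had 13.4, 11.3 and 12.1 CPM in the combination libraries and 44.0, 27.0 and 15.3 CPM in the control libraries. These groups did not overlap, as for 17.7% of all genes on the lower side, and Prf1 did not pass the test. Curcumin 1 (11.44 CPM) and swimming 2 (10.49 CPM) were not above all combination libraries. Gzma (granzyme A) went the other way, at 32.36 to 41.53 CPM in combination and 8.754 to 10.94 CPM in swimming libraries. It had 14.24 to 25.02 CPM in curcumin and 3.067 to 37.91 CPM in control libraries, and was not called higher in combination. Gzmb and Prf1 were chosen after their values were seen, and Gzma was added for its opposite direction.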
